A study of Rattus norvegicus with 10 samples.

Results

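Of 10 rat lacrimal glands profiled on Affymetrix arrays, 5 carried abundant transcript of the secretoglobin Scgb2a1 and 5 carried almost none. Both sets were chosen by a measured value: the glands were divided by the deposited intensity of 1 Scgb2a1 probe set, J00772_s_at, at a limit of 1000, whatever the surgical group. The 5 glands above the limit are called rich and the 5 at or below it poor. Because a measured value made the division, every rich-minus-poor value is a description of these 10 arrays and no test was made on it. A probe set is a group of short probes against 1 transcript, and its intensity is the brightness the authors deposited for it.

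The lacrimal gland secretes the watery part of the tear film, and its acinar cells export a mixture of small secreted proteins. Secretoglobins are small secreted proteins that pair into dimers and bind steroids and other lipids; Scgb2a1 is a chain of prostatein, the steroid-binding protein of the rat ventral prostate. Several of its neighbours in the results, the cystatin-related proteins Andpro and P22k15 and the submaxillary gland proteins, are known as androgen-regulated secretions of the prostate and the salivary or lacrimal glands.

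The rich glands were the contralateral glands 2 and 3, the unoperated gland and the denervated glands 3 and 4. The poor glands were the contralateral gland 1, the sham-operated gland and the denervated glands 1, 2 and 5. Denervated glands (n = 5, titled experimental) had lost the greater superficial petrosal nerve, their parasympathetic supply, by surgery 7 days earlier, and the sham gland had a sham operation 7 days earlier. The controls were the 3 contralateral glands, the unoperated gland and the sham gland. For the contralateral glands the titles were followed, although their descriptions put them on the operated side. The labels do not say whether numbered glands came from separate animals or whether glands were pooled, so the spread between glands may be technical. The sources used here give no strain, sex or age. In a whole gland, fewer cells of a type and less RNA per cell cannot be told apart.

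For 2 genes of the lacrimal list, picked after their values were seen, the range over the 10 glands is given as an example. The lysozyme gene Lyz2, which is also in the macrophage list, ranged from 13741 to 49874 and the water channel Aqp5 from 4147 to 16470. Of the 13 lacrimal genes measured, only Lcn2, in the sham gland, and Csap1, in contralateral 1, lay under the floor in any gland. Median intensity ran from 554 to 811 in rich and from 690 to 981 in poor glands, and 17.9% to 26.5% of probe sets in rich and 12.8% to 23.8% in poor glands lay under the floor set here (156.2, or 7.29 on the log2 scale). The 3' over 5' log2 ratio of the GAPDH control probe sets, which reflects RNA integrity, was 0.01 to 0.35 in rich and -0.64 to 0.02 in poor glands; the beta-actin ratios were 0.65 to 1.14 and 0.19 to 0.95. The part of these differences in the results was not tested. Between pairs of arrays, log2 intensity correlated across probe sets at 0.851 to 0.912 among rich glands and 0.715 to 0.898 among poor glands. The poor glands fell into 2 sets: contralateral 1, sham and denervated 1 correlated at 0.851 to 0.898 with each other, denervated 2 and 5 at 0.847, and the 2 sets at 0.715 to 0.782 with each other. Medians of gene lists are given with and without these sets.

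In every sentence that follows, rich glands are listed in the order contralateral 2, contralateral 3, unoperated, denervated 3 and denervated 4, and poor glands in the order contralateral 1, sham, denervated 1, denervated 2 and denervated 5. The dividing probe set of Scgb2a1 read 233234, 360033, 87856, 74352 and 111400.2 in rich and 151, 109.9, 72.0, 122 and 154 in poor glands. The lowest rich gland lay 481.6-fold above the highest poor gland, 74352 against 154, and no gland fell between. A second probe set, J00777_at, whose annotation lists Scgb2a1 under a pair of gene records, read 53014, 138881, 15919.7, 12247 and 20551 in rich, against 353, 64.9, 172, 46.5 and 119 in poor glands. Both showed an all-or-none pattern, with the contralateral glands 2 and 3 brightest.

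Oprpn, the opiorphin prepropeptide gene, which encodes a secreted peptide precursor, read 564741, 556715, 547722, 705748 and 213171 in rich and 138, 119, 105, 88.6 and 253 in poor glands. Its mean log2 intensity was 18.88 ± 0.67 (SD, n = 5) in rich and 7.43 ± 0.31 (SD, n = 5) in poor glands, a log2 difference of 11.45, and 4 poor glands were under the floor. Andpro, a cystatin-related protein first known from the prostate, read 411005, 565916, 302915, 219026 and 163161 in rich, against 88.1, 100.3, 65.6, 13.0 and 302 in poor glands. The log2 difference was 10.73, and 10.44 at a second probe set. The nearest rich and poor glands were 9.72 apart for Oprpn and 9.08 apart for Andpro on the log2 scale.

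P22k15, another cystatin-related protein of the prostate, read 78776, 62893, 38662, 20913 and 25101 in rich and 46.3, 867, 160.4, 353 and 86.0 in poor glands, a log2 difference of 7.26. At a second probe set every poor gland was under the floor, and rich glands were at least 25.3-fold higher. At another, the difference was 2.14 and the glands overlapped, with denervated 4 at 343 and denervated 5 at 1242. Andpro and P22k15 are close relatives, and these probe sets may share signal between them.

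Smr3a, a submaxillary gland androgen-regulated protein, read 181054, 229314, 192415, 85972 and 51240.1 in rich and 1975, 1671, 203, 33.6 and 178 in poor glands. Its log2 difference of 8.16 came with unequal poor glands: contralateral 1 and sham kept 1975 and 1671, and denervated 2 was under the floor. Its relative Smr3b did not separate the glands, with 378, 1676, 4572, 204 and 445 in rich and 2075, 5517, 1706, 588 and 182 in poor glands (log2 difference -0.60). In the RefSeq gene order Smr3b lies next to Oprpn with no gene between, and Smr3a lies 3 protein-coding genes from Oprpn.

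**Figure D1:**
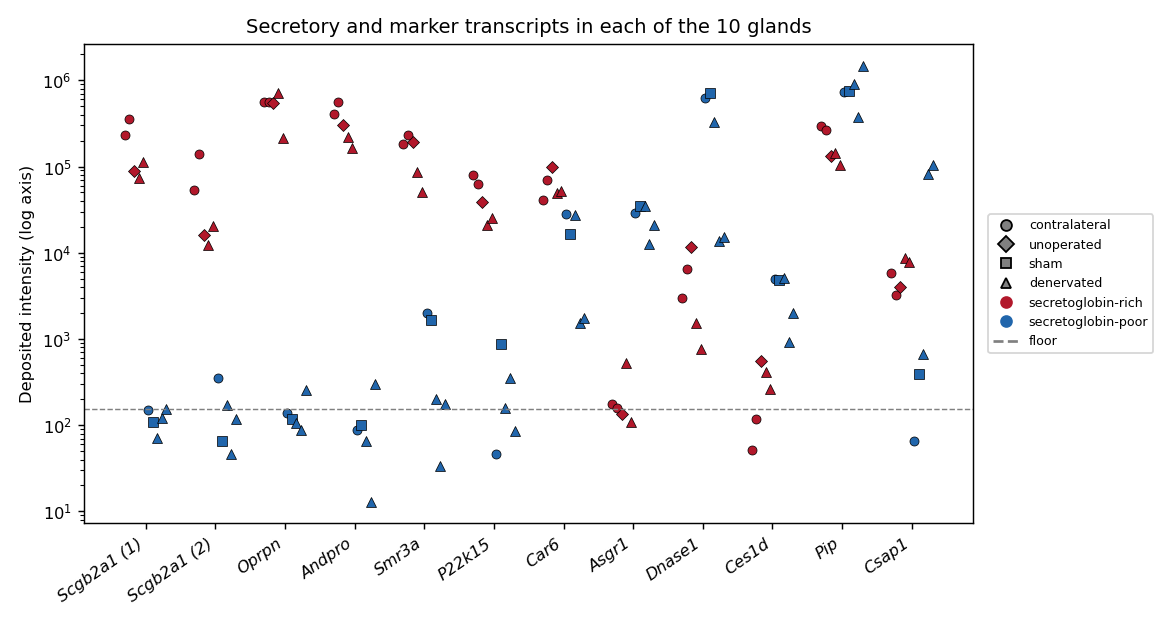
Deposited intensity (log axis) of 11 genes in each of the 10 glands, with both Scgb2a1 probe sets; each point is 1 gland, shape gives the surgical group, colour the division by Scgb2a1, and the dashed line is the floor of 156.2. All 5 rich glands lie far above all 5 poor glands for Oprpn and Andpro, Asgr1 runs the other way, and Csap1 is high in denervated 2 and denervated 5.

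The stretches upstream of 4 of these genes are shown because their transcripts went together across the 10 glands. Each is the 250 bases before the RefSeq transcription start in build GRCr8, 5' to 3' on the gene's strand, and capitals mark the steroid receptor half-site TGTTCT or its complement AGAACA. Scgb2a1 is at chr1:215922501-215922750 (plus strand), Oprpn at chr14:20001590-20001839, Andpro at chr3:157178105-157178354 and P22k15 at chr3:157427989-157428238 (all minus strand).
Scgb2a1: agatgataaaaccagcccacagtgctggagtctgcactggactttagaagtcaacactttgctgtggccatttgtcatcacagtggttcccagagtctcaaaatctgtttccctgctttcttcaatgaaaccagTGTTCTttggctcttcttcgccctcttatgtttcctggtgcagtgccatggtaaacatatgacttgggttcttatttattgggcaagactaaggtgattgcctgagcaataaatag
Oprpn: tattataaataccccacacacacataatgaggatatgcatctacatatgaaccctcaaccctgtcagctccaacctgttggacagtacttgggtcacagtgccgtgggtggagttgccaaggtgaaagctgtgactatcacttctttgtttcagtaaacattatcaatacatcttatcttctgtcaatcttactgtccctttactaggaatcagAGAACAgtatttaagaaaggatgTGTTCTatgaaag
Andpro: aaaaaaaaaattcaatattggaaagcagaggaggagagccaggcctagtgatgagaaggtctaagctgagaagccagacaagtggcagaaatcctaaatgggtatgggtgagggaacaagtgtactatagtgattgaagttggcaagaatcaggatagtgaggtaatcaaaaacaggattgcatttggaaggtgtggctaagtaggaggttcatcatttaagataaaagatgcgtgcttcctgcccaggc
P22k15: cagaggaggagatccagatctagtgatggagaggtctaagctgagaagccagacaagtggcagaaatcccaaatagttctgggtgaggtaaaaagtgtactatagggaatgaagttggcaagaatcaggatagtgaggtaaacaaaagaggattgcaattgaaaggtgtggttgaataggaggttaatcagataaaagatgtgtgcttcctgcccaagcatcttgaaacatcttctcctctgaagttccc

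Scgb2a1 has 1 half-site, Oprpn 2, and Andpro, P22k15 and Smr3a none in this window. Andpro and P22k15, which have 2 protein-coding genes between them on chromosome 3, were identical at 70.2% of 282 aligned positions, against 47.4% to 55.1% for the other pairs among 6 genes (these 5 and Asgr1). Searched on both strands, TGTTCT was in 17.1% of 27457 promoter windows, in 5 of the 15 windows found for the genes higher in rich glands named here (33.3%), and in 3 of the 13 for the lower ones (23.1%). The palindrome of AGAACA and TGTTCT with 3 bases between was in 1 window of all and in none of these. A match describes letters only, and its part in these levels was not tested.

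Across all 6117 probe sets compared, rich and poor glands did not overlap for 101 that were higher (1.65%) and 139 that were lower (2.27%) in rich glands. These shares belong to the contrast that the division made, and nothing is read from them. Of the 101, 59 differed by more than 2-fold and 7 by more than 16-fold, while of the 139 these numbers were 88 and 3. The median log2 difference of all probe sets was -0.15. The split between higher and lower depended on the array scale: quantile normalization gave 121 higher and 94 lower (median 0.02), and a common median gave 186 and 56 (median 0.14). The genes named first are the 20 with the largest difference higher and the 15 lower in rich glands among those without overlap. These 35 and Scgb2a1 kept their direction under both scales. They were chosen for differences of at least 1.68 in size, and the scales moved the median far less, so this is no separate support. The separated probe sets held 78 genes higher and 110 genes lower in rich glands.

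**Figure D2:**
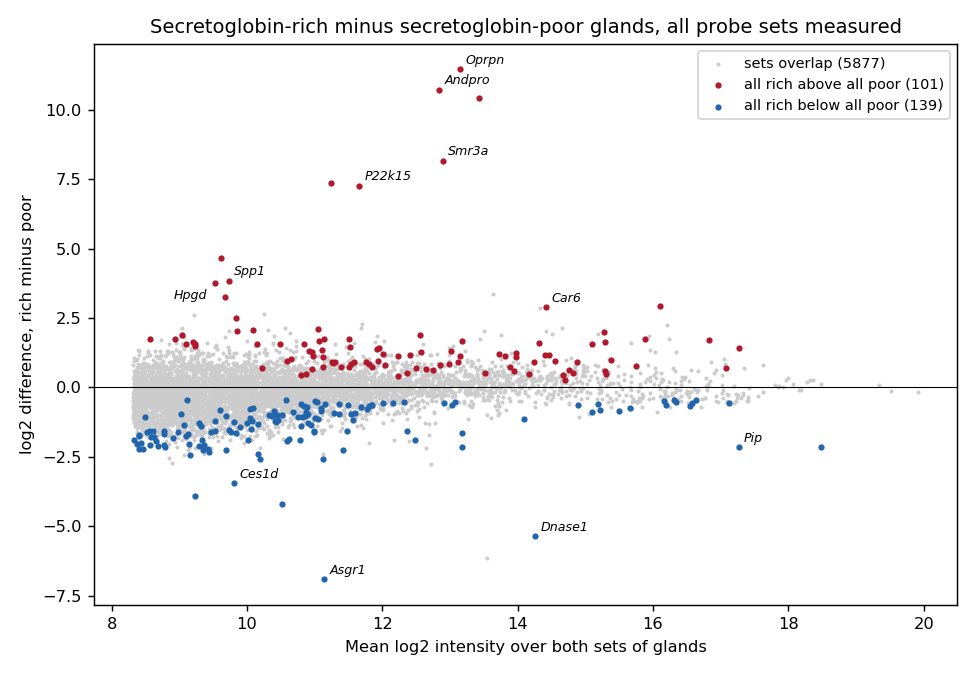
Log2 difference, rich minus poor, against the mean log2 intensity for the 6117 probe sets; red points are the 101 with all rich glands above all poor glands and blue points the 139 with all rich below all poor. Oprpn and Andpro lie above 10 and Asgr1 near -7, far outside the band that holds most probe sets.

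Other secreted products were also higher in rich glands. Car6, the secreted carbonic anhydrase of saliva and tears, read 40925, 70674, 99579, 49089 and 52091 in rich and 27793, 16562, 27344, 1527 and 1728 in poor glands (log2 difference 2.89). Denervated 2 and 5 lay far under the other 8 glands, and without them the difference was 1.35. Spp1, osteopontin, a secreted matrix phosphoprotein also made by macrophages, read 2951, 2644, 746, 4830.4 and 12266 in rich, against 94.1, 221, 122, 656 and 159 in poor glands (3.85). The unoperated gland and denervated 2 nearly met, at 746 and 656. Cp, the copper-carrying ferroxidase ceruloplasmin, read 60266, 53547, 48998, 124295 and 155431 in rich, against 13302, 13267, 11191, 46575 and 35191 in poor glands (1.98). Its values in contralateral 1, sham and denervated 1 were the lowest, and against denervated 2 and 5 alone the difference was 0.96. A second Cp probe set gave 2.02 and another, dimmer one -0.29.

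Enzymes made up a further group. Hpgd, which inactivates prostaglandins, read 2957, 8505, 1462, 1548 and 2576 in rich and 96.4, 195, 117, 355 and 191 in poor glands (log2 difference 3.76), and its nearest rich and poor glands were 2.04 apart on the log2 scale. Glyatl2, an acyltransferase that joins glycine to fatty acids, differed by 2.50, and denervated 2 and 5 were under the floor. Padi4, which converts arginine residues to citrulline, differed by 2.08, with rich glands tightly grouped at 12.09 ± 0.17 (SD, n = 5, log2 intensity). Arg2, the mitochondrial arginase, read 3799, 4245, 5096, 5376 and 9728 in rich, against 1868, 1743, 2362, 1208 and 1114 in poor glands (1.74). Dbi, the acyl-CoA-binding protein, differed by 1.68 and Acp3, prostatic acid phosphatase, by 1.74, with -0.17 at a probe set that did not pass the filter. Alas1, the first enzyme of haem synthesis, read 58104, 56767, 97715, 55499.5 and 96532 in rich, against 26899, 9097, 41619, 33938 and 17586 in poor glands (1.63, and 1.61 at a second probe set). Cel, a bile-salt-activated lipase, differed by 1.62.

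Membrane and signalling genes were also among those named. The glutamate transporter Slc1a1 differed by 2.03, the proline transporter Slc6a20a by 1.68 and the water and glycerol channel Aqp9 by 1.90. Map2k6, a kinase that activates p38 MAP kinases, read 5626, 6417, 3987, 3535 and 2323 in rich, against 1275, 1757, 1047, 809.9 and 1443 in poor glands (1.75). Cd44, the hyaluronan receptor, differed by 2.07 at 1 probe set, but by 0.59, 0.30 and -0.13 at others, and against denervated 2 and 5 alone by 0.69. Chrna7, a nicotinic receptor subunit, differed by 1.74 at 1 probe set and by -0.10 and -0.48 at others, and the respiratory subunit Ndufs8 by 1.87 at 1 and by -0.22, -0.14 and -1.43 at others. Slc1a1 likewise differed by 0.63 and 0.06 at its other probe sets, so for these 4 genes the separation was that of 1 probe set.

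**Figure D3:**
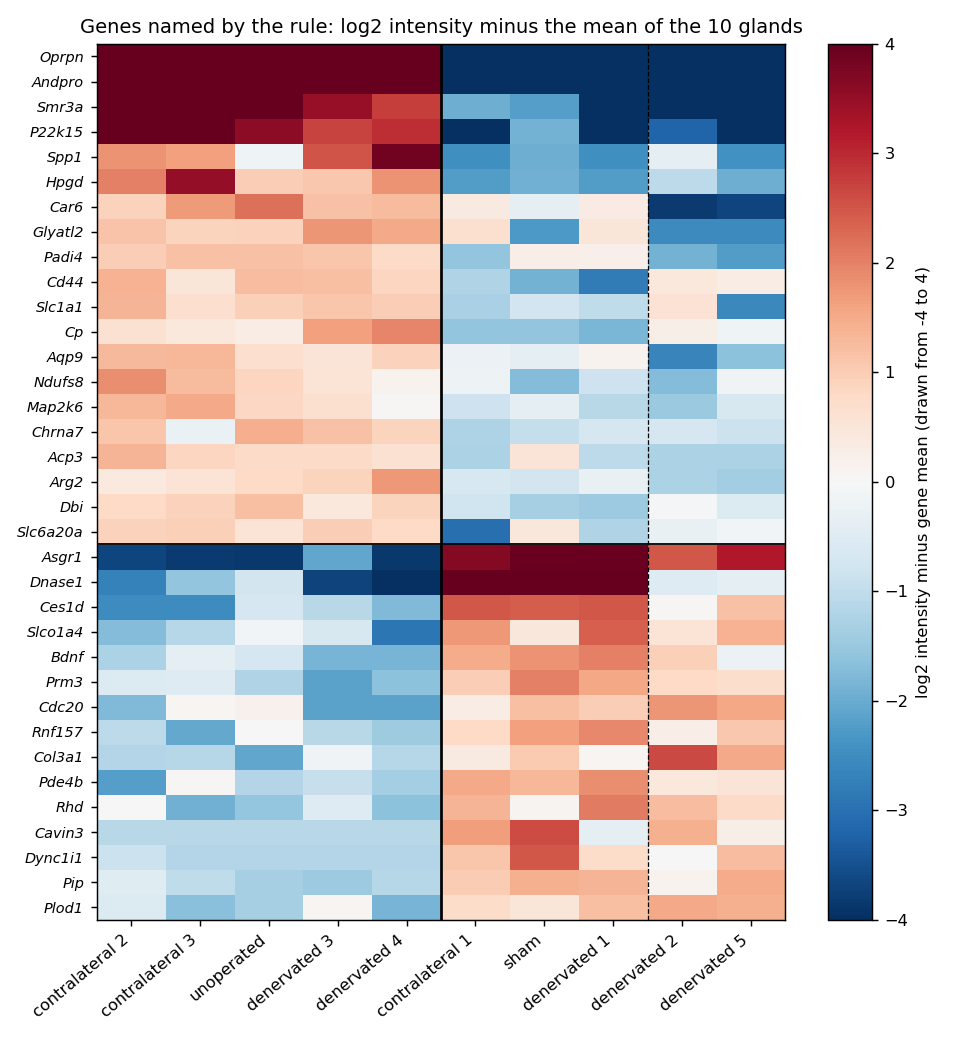
Log2 intensity of the 35 genes named by the rule, 20 higher and 15 lower in rich glands, in each gland, minus the gene's mean over the 10 glands and drawn from -4 to 4. The solid line divides rich from poor glands and the dashed line sets denervated 2 and denervated 5 apart; Car6, Glyatl2 and Dnase1 differ between these 2 and the other 3 poor glands.

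In the other direction the largest difference was that of Asgr1, the major subunit of the asialoglycoprotein receptor of hepatocytes, a lectin that takes up glycoproteins without terminal sialic acid. It read 178, 159, 135, 529 and 108 in rich and 28711, 35128, 34811, 12716 and 20995 in poor glands, a log2 difference of -6.92. At a second probe set all rich glands were under the floor, and poor glands were at least 14.96-fold higher. Asgr1 was thus at most 529 where Scgb2a1 was abundant, and at least 12716 where Scgb2a1 was under the floor.

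Markers of hepatocytes, the cells known for this receptor, did not separate the glands as a list. Of 25 listed genes 15 were measured, and 4 were higher and 11 lower in rich glands (median log2 difference -0.72, against -0.16 over 3620 genes). The median was -1.08 without denervated 2 and 5 and -0.21 against these 2 alone. Asgr1 alone did not overlap between the sets. The summed intensity of the list was 70492 to 241807 in rich and 72887 to 293625 in poor glands. Most of each sum was Serpina1, with a mean log2 intensity of 16.88 in rich and 16.75 in poor glands. The sums therefore say little about the other members. The score of the list is the mean of the members' log2 intensities minus their means over the 10 glands. This score was -1.12 to -0.06 in rich and -0.21 to 1.35 in poor glands. Albumin, Alb, which defines the type, read 222 to 802 in rich and 242 to 1510 in poor glands at its brightest probe set, and its other 3 probe sets did not pass the filter on low values. Haptoglobin, Hp, read 378, 274, 305, 65.5 and 97.0 in rich, against 2514, 1473, 3132, 542 and 203 in poor glands, so that contralateral 1, sham and denervated 1 were highest. The part of these genes in the result was not tested.

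Dnase1, the secreted deoxyribonuclease, read 2984, 6542, 11714, 1514 and 762 in rich and 621186, 721537, 329146, 13578 and 15271 in poor glands (log2 difference -5.36). Contralateral 1, sham and denervated 1 carried 329146 to 721537 and denervated 2 and 5 were close to the unoperated gland, so the difference was -7.44 against the first 3 and -2.24 against denervated 2 and 5. At another probe set (-6.15) the glands overlapped, with the unoperated gland at 21433. Pip, the prolactin-induced protein of tears and saliva, read 292344, 266933, 132399.6, 143791 and 104315 in rich, against 724728, 743909.8, 899345, 379391 and 1474252 in poor glands (-2.15, and -2.17 at a second probe set). Against the same 2 sets of poor glands, the second probe set differed by -2.34 and -1.90.

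Ces1d, a carboxylesterase, read 51.2, 117, 558, 413 and 263 in rich and 4969, 4789.5, 5044, 930.3 and 2012 in poor glands (log2 difference -3.44). The organic anion transporter Slco1a4 read 354, 536, 1092, 757 and 115 in rich, against 3873, 1597, 6077, 1715 and 3055 in poor glands (-2.59). Prm3, a protamine family gene, differed by -2.42, the ubiquitin ligase Rnf157 by -2.27, and Cdc20, an activator of the anaphase-promoting ligase, by -2.33. Col3a1, a fibrillar collagen, read 1222, 1230.4, 651, 2484 and 1236 in rich, against 3514, 5634, 2858, 16911 and 7839 in poor glands (-2.26), with denervated 2 highest, and at a brighter probe set (-1.72) the glands overlapped. Plod1, a collagen lysyl hydroxylase, differed by -2.13 and the dynein chain Dync1i1 by -2.22. Rhd, of the Rhesus family, differed by -2.24 and by -1.83 at a second probe set. Cavin3, a caveolar coat protein, differed by -2.23 at 1 probe set with every rich gland under the floor, but by -1.17 at a second, brighter one.

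For a pair of the lower genes other probe sets disagreed. Bdnf, a neurotrophin, differed by -2.42 at 1 probe set, but 6 others gave 0.05 to -1.57 with overlapping glands. Pde4b, a cyclic AMP phosphodiesterase, differed by -2.25 at 1 and by 0.76, 0.63 and 0.35 at the other 3.

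Gene lists set the separated genes beside their pathways. Over the 3620 genes measured, 39.4% were higher in rich glands, and 1.77% were higher and 2.43% lower without overlap; a list's counts are to be read beside these shares. After each list's median log2 difference stand 2 further medians, first without denervated 2 and 5 and then against these 2 alone; for all probe sets the 3 medians were -0.15, -0.21 and -0.10.

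Of 24 listed secretoglobins and androgen-regulated gland secretions, 20 were on the array and 12 passed the filter, with Scgb2a1 left out as the dividing gene. Of the 12, 7 were higher and 5 lower in rich glands (median 0.23; 0.090 and 0.64). The 4 without overlap were Oprpn, Andpro, Smr3a and P22k15. The other 8 differed by -1.16 to 0.37: Cst8 by -1.16, the seminal vesicle protein Svs4 by -0.96, Scgb1d4 by -0.88, Serpina3n by -0.27, Tgm4 by 0.14, the odorant-binding protein Obp3 by 0.33 and Scgb1c1 by 0.37, with Smr3b above. Scgb1d2, another prostatein chain, did not pass the filter at either probe set, with values from 26.8 to 1129.7. Obp3 was abundant in both sets of glands, 203621 to 389476 in rich and 74561 to 371419 in poor glands.

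Among lacrimal secretory proteins 13 were measured, and 8 were higher and 5 lower in rich glands (median 0.58; 0.74 and -0.27). Lcn2, the siderophore-binding lipocalin, read 36246, 59525, 33592, 62949 and 113652 in rich and 7578, 149, 7443, 64533 and 46079 in poor glands, so that denervated 2 and 5 lay among the rich glands. Gp2, a granule membrane protein, and Clu, the secreted chaperone clusterin, differed by 2.27 and 2.24 and were also lowest in contralateral 1, sham and denervated 1. In this list Car6 separated the glands as higher, and Dnase1 and Pip as lower, in rich glands. Csap1, singled out after its values were seen, was apart in both poor sets: 5755, 3277, 4022, 8686 and 7714 in rich, and 66.0, 397, 670.1, 81349.5 and 103875 in poor glands. Denervated 2 and 5 thus lay above every rich gland, and the other 3 poor glands below every rich gland. Csap1 was not alone in this order, which 77 of 6117 probe sets showed (1.26%). Of 8 salivary secretory proteins 6 were higher (median 0.66; -0.27 and 2.05), and Oprpn, Smr3a and Car6 did not overlap.

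Of 23 chaperones and folding enzymes of the endoplasmic reticulum 21 were higher in rich glands (median 0.22; -0.10 and 0.94), so the sign depended on the poor set, and none was without overlap. Dnajb9 differed by 1.02 and Pdia3 by 0.63. Of 29 exocytosis genes 15 were higher (0.06; -0.09 and 0.40), with Rab27a, which docks secretory granules, at 1.60. Of 26 autonomic receptor and signalling genes 12 were higher (-0.16; -0.22 and 0.35), and the median was 0.02 with quantile normalization and 0.11 with a common median. In that list Camk2d, a calcium-dependent kinase, was without overlap, by 1.18 at 1 of its probe sets. Of 19 androgen and steroid signalling genes 7 were higher and 12 lower (-0.15; -0.14 and -0.13), but the median was 0.15 under both other scales. Of 21 ion and water transport genes 7 were higher (-0.39; -0.15 and -0.35).

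Stromal, immune and growth lists were mostly lower on the deposited scale, as were genes in general, and several of these differences lay with denervated 2 and 5. Of 36 extracellular matrix and fibroblast genes 31 were lower in rich glands (median -0.59; -0.17 and -1.59), and Col5a1, a fibrillar collagen, was without overlap. The score of the list was 1.06 in denervated 2 and 1.08 in denervated 5, against -0.70 to 0.26 in the other 8 glands. All 36 ribosomal proteins were lower (-0.37; -0.13 and -0.73, and -0.07 with a common median), with Rpl7a, Rpl24 and Rpl11 without overlap. Of 10 MHC class II genes 9 were lower (-0.40; -0.07 and -0.95). Of 15 cell cycle genes 11 were lower (-0.28; -0.08 and -0.74, and 0.02 with a common median). Of 13 T and natural killer cell genes 8 were lower (-0.43; -0.48 and -0.49), and of 10 endothelial genes 6 (-0.64; -0.83 and -0.33). Of 13 macrophage genes 9 were higher (0.21; 0.74 and -0.57), and Spp1 and the complement subunit C1qc were without overlap, at 3.85 and -0.91.

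Of 17 Harderian gland and lipid synthesis genes 11 were higher (median 0.32; 0.13 and 0.52), led by Alas1, with Fdps of sterol synthesis at 1.28. Of 15 skeletal muscle genes 13 were higher (0.41; 0.04 and 1.02), none without overlap. Of 9 lectin receptors, Asgr1 among them, 5 were higher (0.53; 0.28 and -0.11), with galectin Lgals3 at 1.75. Of 6 blood cell genes 4 were lower (-0.82; 0.15 and -1.49). Among 13 genes of myoepithelium and smooth muscle 7 were higher (0.04; 1.03 and -1.38), and the actin-binding Cald1 was without overlap at 1.57. Of 13 duct and epithelial genes 8 were higher (0.08; 0.40 and -0.31), and the tight junction protein Cldn3 was without overlap at 0.50 and 0.64. Of 7 pancreatic acinar genes 5 were lower (-0.42; -0.78 and 0.11), and Cel was without overlap. Of 52 respiratory chain genes 30 were higher (0.03; 0.14 and -0.02), with Ndufa4 without overlap at 0.49 and Cox6a2 at -1.88 at 1 of 3 probe sets.

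Of 15 nerve genes 8 were lower (median -0.12; -0.17 and 0.03), with 0.12 and 0.08 under the other scales, and the neurofilament Nefh was without overlap at -1.70 at 1 of 2 probe sets. The medians were 0.16 for 8 adipocyte genes (0.44 and -0.40), 0.25 for 17 immediate early genes (0.34 and -0.09), -0.07 for 10 circadian genes (-0.18 and -0.25) and -0.02 for 3 B or plasma cell genes (-0.06 and -0.78), with none of these genes without overlap. The 3 B or plasma cell genes were Cd74, Sdc1 and Cd24. Cd74 is also in the macrophage list, so their median does not measure B cells alone. The circadian median turned to 0.11 and 0.23 and the B cell median to 0.28 under another scale. The circadian output gene Dbp differed by 2.15 and was 106 to 291 in contralateral 1, sham and denervated 1 and 1840 to 7191 in the other 7 glands. The only sex-linked gene of the list on the array, Sry, did not pass the filter.

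**Figure D4:**
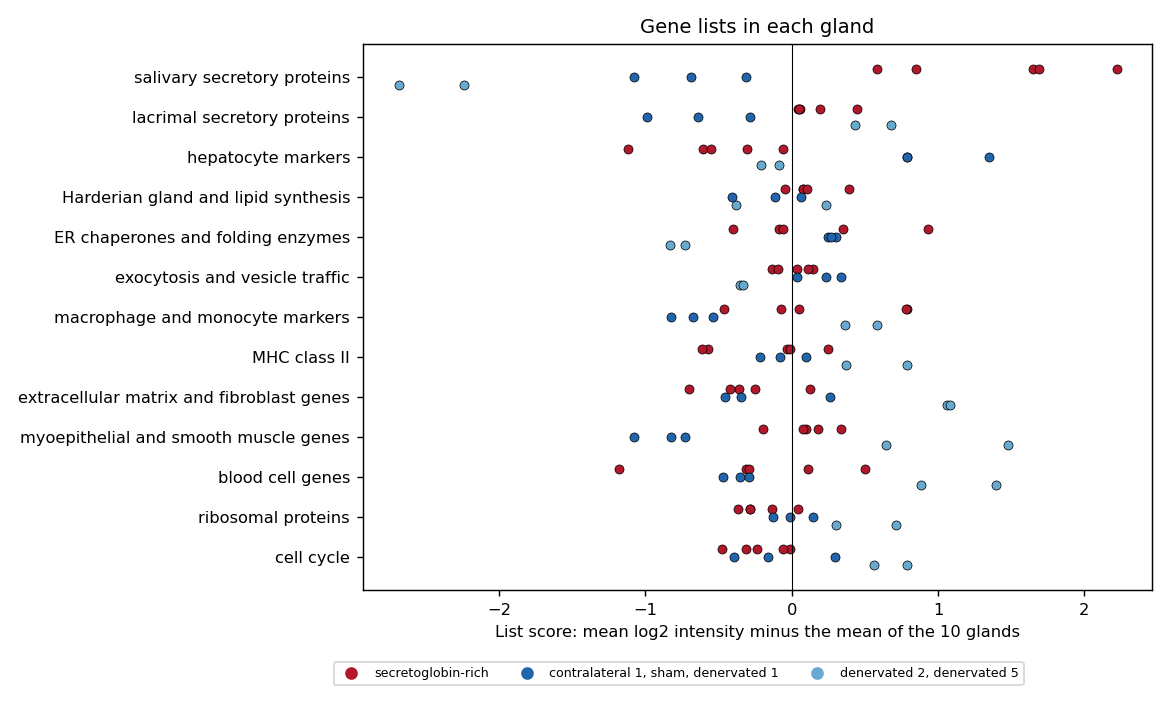
Score of 13 gene lists in each gland, the mean log2 intensity of the list's measured genes minus their means over the 10 glands; red points are rich glands, dark blue points contralateral 1, sham and denervated 1, and light blue points denervated 2 and denervated 5. The salivary score divides rich from poor glands, but it holds Oprpn, a marker of the division, with Smr3a and Car6, and its other members overlap. The matrix, myoepithelial and blood lists set denervated 2 and denervated 5 apart from the other 8 glands.

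The 2 sets of poor glands also differed from each other. They did not overlap for 2680 of 6117 probe sets (43.8%). The sets were formed from the correlations of these same arrays, so this share describes that choice and is no separate result. Among the 101 probe sets higher in rich glands this held for 42 (41.6%), and among the 139 lower ones for 45 (32.4%). Against denervated 2 and 5 alone, 584 probe sets were higher and 866 lower in rich glands without overlap, and against contralateral 1, sham and denervated 1 alone 429 and 799; smaller sets overlap less. A gene without overlap keeps its direction against either set by construction, and only the size can differ. For Oprpn the differences were 11.24 and 11.59, for Andpro 10.44 and 10.92, for P22k15 7.41 and 7.16, for Smr3a 9.59 and 7.20, and for Asgr1 -6.31 and -7.32.

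The division cut across the surgery. Rich glands were 2 denervated and 3 control glands, and poor glands 3 denervated and 2 control glands. Among the numbered glands, both glands with number 1 were poor, both with number 3 were rich, and number 2 was rich on the contralateral and poor on the denervated side. The labels do not say whether equal numbers mean the same animal.

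Denervated glands were then compared with control glands, a contrast the division did not use. Limma with Benjamini-Hochberg adjustment called 0 of 6118 probe sets at an adjusted p under 0.05 (0.0%), and 592 had an unadjusted p under 0.05 (9.68%), 307 higher (5.02%) and 285 lower (4.66%). Among the 101 probe sets higher in rich glands, 3 had an unadjusted p under 0.05 (2.97%; Prep, Aldh7a1 and Ech1), and among the 139 lower ones 2 (1.44%; Nap1l1 and Slc27a1). Both sets were chosen for a gap between rich and poor glands, and each surgical group held both kinds of gland. That widens their spread within the groups, so nothing is read from these shares. Leaving out denervated 1 gave 70 calls over all probe sets, 48 of them higher.

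By limma Oprpn differed by -2.43 ± 2.98 (SE, log2, denervated minus control, adjusted p = 0.807), Andpro by -2.53 ± 2.78 (adjusted p = 0.784) and Asgr1 by 1.49 ± 1.83 (adjusted p = 0.808). The denervated glands and the pooled controls each held glands at both extremes of these 3 genes. Smr3a differed by -4.004 ± 2.01 (adjusted p = 0.534), Car6 by -1.90 ± 0.95 (adjusted p = 0.531) and Dnase1 by -2.07 ± 1.72 (adjusted p = 0.712). None passed the test, and 0.531 was the lowest adjusted p among the 35 genes. These genes were chosen for a gap between rich and poor glands, and each surgical group held both kinds of gland. Their spread within each group was therefore wide by selection, and the test can say little about denervation for them. Denervated glands were lower for 78 of the 101 probe sets higher in rich glands (median -0.30). They were higher for 107 of the 139 lower ones (median 0.20). Over all 6118 probe sets, denervated glands were lower for 3388 and higher for 2730 (median -0.08). The unequal share of rich glands, 2 of 5 denervated and 3 of 5 control, enters the numbers of both sets, so nothing is read from them.

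**Figure D5:**
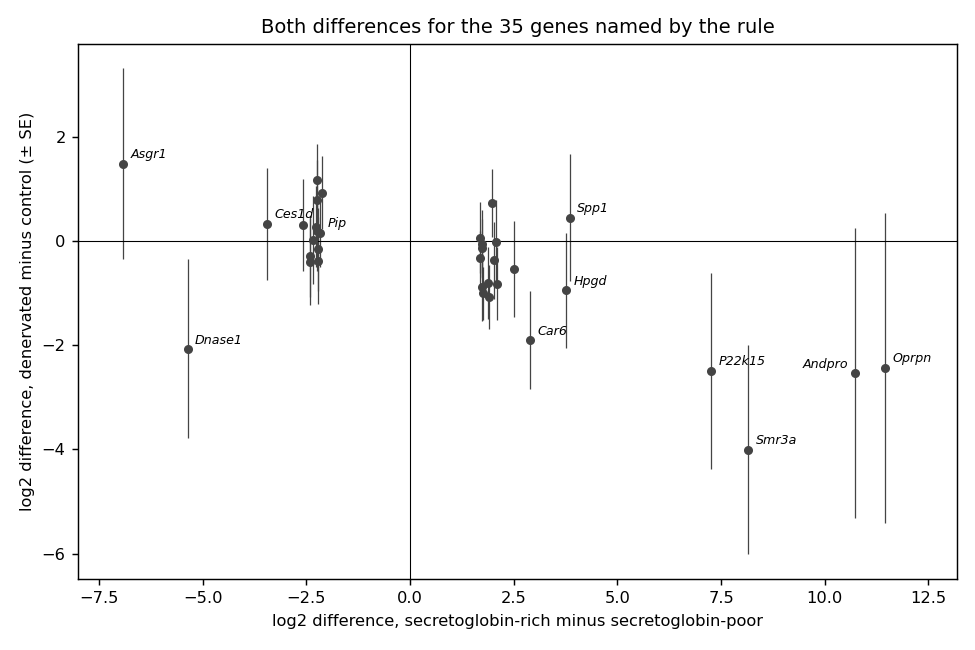
Log2 difference of denervated minus control glands (points, with bars for the SE from limma, n = 5 and 5) against the log2 difference of rich minus poor glands, for the 35 named genes. No gene passed the test on the vertical axis, and Smr3a at -4.004 lies lowest. The genes were chosen for a gap between rich and poor glands that both surgical groups contain, which widens the bars.

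Within the rich glands, 3 secreted products were lower in the 2 denervated than in the 3 control glands, in numbers too small to test. They were picked after their values were seen, and the share of all probe sets with this order was not counted. Nothing about denervation is therefore read from this order. Smr3a was 85972 and 51240 against 181054 to 229314, Andpro 219026 and 163161 against 302915 to 565916, and P22k15 20913 and 25101 against 38662 to 78776. Oprpn did not follow, since denervated 3 was the brightest gland at 705748 and denervated 4 the dimmest of the rich glands at 213171. Scgb2a1 did not follow either, with denervated 4 above the unoperated gland at both probe sets (111400 against 87856, and 20551 against 15920). Car6 also overlapped, with both denervated glands above contralateral 2.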

How the data were processed

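Messenger RNA of 10 rat lacrimal glands was measured on 1 array each. The deposited values are linear intensities of 8799 probe sets. Scaling by the authors shows in the deposited intensities, whose means with 2% trimmed at each end are 2505 to 2507. The sources used here name no software. The number of arrays limits the precision.

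Intensities were floored at 156.2, the 20th percentile of all values, and log2 was taken, so differences that involve the floor understate the change. After removal of 59 array controls, 6118 of 8740 probe sets with a mean above the 30th percentile were kept (6117 without the dividing probe set). Probe sets were named from the platform annotation: 7006 had 1 symbol, 308 several and 1426 none listed, and 6985 gene IDs matched the RefSeq table.

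Rich and poor glands were compared by differences of means and by overlap, without a test. Denervated and control glands were compared with limma 3.58.1 under R 4.3.3, using lmFit and eBayes with an intensity trend in the variance. The test was two-sided at a Benjamini-Hochberg adjusted p of 0.05, after its steps were tested on simulated data. Those data had the same spread for every probe set, narrower than that of many genes here, so they do not give the power of the test. How the division fell across surgery is given as counts. For a gene's place in a list the probe set with the highest mean was used. Named are the dividing gene and its markers, the 20 genes higher and 15 lower with the largest difference among those without overlap, each by its probe set of largest difference, up to 4 members of each list by difference, and all measured secretoglobins and androgen-regulated secretions; others are said to be chosen after their values were seen. The members, lists and rule were chosen with earlier results of these data known. Upstream sequences came from RefSeq (GRCr8), aligned in pairs with Biopython 1.88. Alternatives were other scales, floors and filters, array weights, eBayes without the trend, the gland number as a block, and leaving out glands.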

Additional observations from a re-analysis of the deposited data

Results flagged for a closer look

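At 1 probe set of Cd44, the hyaluronan receptor, the gland denervated 1 lay far below the other denervated glands: its log2 intensity was at the floor of 7.29, while the other 4 were at 10.38 to 11.31. The gap took up 0.769 of the group's range, against a critical value of 0.710 for 5 samples. Chance flags about 1 in 20 groups. All genes named by the rule and both Scgb2a1 probe sets were screened, so a chance flag among them was likely. Cd44 was also named for lower values in poor glands, and denervated 1 is a poor gland.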

How the results depend on the processing

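The counts of probe sets without overlap, 101 higher and 139 lower in rich glands, depended most on which glands were compared, since fewer glands overlap less. They were 186 and 56 with a common median, 584 and 866 without contralateral 1, sham and denervated 1, 429 and 799 without denervated 2 and 5, 523 and 1010 in denervated glands alone, and 779 and 1281 in control glands alone. Leaving out 1 gland gave 115 to 174 higher and 173 to 284 lower. Over the other scales, floors and filters the higher count was 94 to 121 and the lower 94 to 160. The 36 genes kept their direction under the other scales, floors and filters where they were measured (35 with the floor at the 10th percentile, 30 with the filter at the 50th). They were chosen for large differences, at least 1.68 in size, so this outcome was close to fixed and is no separate support. Leaving out glands cannot change the direction for genes without overlap. The median changed sign for 19 of 29 lists, 6 under another scale and 15 against 1 of the sets of poor glands, some under both. Among lists with a median of at least 0.5 in size, it turned for lectin receptors (-0.060 to 0.68 when 1 gland was left out, lowest without contralateral 1, and -0.11 without contralateral 1, sham and denervated 1), lacrimal secretory proteins (-0.27 without the same 3), salivary proteins (-0.27 without denervated 2 and 5) and blood cell genes (0.15 without denervated 2 and 5, 0.39 in control glands alone); the cause was not tested. For denervated against control glands, limma gave 0 calls under every setting tried (384 to 767 at an unadjusted p under 0.05) except 70 without denervated 1, which had 1105. With the gland number as a block it gave 0 calls and 504 at an unadjusted p under 0.05. Deviations of equally numbered glands correlated at 0.49, 0.04 and 0.16. The division into rich and poor glands enters these correlations, so they do not tell whether equal numbers mean the same animal. The numbers were not taken as pairs because the labels do not give pairs. Array intensities near the floor limit what can be said of dim genes.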
